A study of Mus musculus with 126 samples.

Results

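The genes described here are 33 genes of fatty acid oxidation and of the fasting response, followed in mouse colon through the day in wild type and mutant animals and under night and day feeding of low or high salt diet. They were chosen by gene symbol from a fixed list, with earlier results of these data known. All 33 were found, each as 1 of the 24883 rows of every expression table, and 32 of them were among the 11377 rows that passed the filter on low values (a mean of at least 1 in 1 or more conditions). The member that did not pass was Cd36, the plasma membrane fatty acid translocase, whose mean lay between 0.0069 and 0.025 in the 7 conditions. The values are FPKM (fragments counted per length of transcript and relative to all mapped fragments), rescaled between libraries and called rescaled FPKM below. Differences are on the log2(rescaled FPKM + 0.5) scale, which understates the change of the lowest genes, and each is given with its standard error (SE) from the model.

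The series held 18 libraries of colon RNA in each of 7 conditions, taken every 4 h at ZT0, ZT4, ZT8, ZT12, ZT16 and ZT20 with 3 replicates each. Of 8 smooth muscle markers only 2 passed the filter, as given below. ZT, zeitgeber time, counts hours from lights on, so that ZT0 to ZT12 is light and ZT12 to ZT24 dark. In 3 conditions the mice ate normal chow ad libitum and differed in genotype: wild type, Bmal1 knock out (loss of the clock transcription factor Bmal1, gut-specific by the series description) and MR knock out (loss of the mineralocorticoid receptor). The knock outs were 8 to 12 weeks old. No age of the wild type, no sex for these 3 groups and no Cre driver is in the labels, and whether the MR deletion is limited to the gut is not spelled out there. The other 4 conditions were male C57BL/6 mice aged 8 weeks, fed a low or a high salt diet only by night or only by day under 12 h of light and 12 h of dark. They are named low salt night fed, low salt day fed, high salt night fed and high salt day fed. The hours of food access and the salt content are not in the labels. Nothing says that replicates came from separate animals, so p-values measure the spread between these libraries, which may be technical in part.

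Fatty acids enter a cell with the help of transporters and binding proteins, are activated to acyl-CoA by synthetases and cross the mitochondrial membranes as carnitine esters. In the matrix, a spiral of dehydrogenation, hydration, renewed dehydrogenation and thiolysis shortens them, with auxiliary enzymes for double bonds, while peroxisomes shorten very long chains and the electron transfer flavoprotein passes electrons on to the respiratory chain. In liver, fasting raises many of these genes through the nuclear receptor PPARα, together with genes that spare glucose or handle ketone bodies. Colonocytes are known for oxidising butyrate from the gut bacteria, and the clock and the time of meals both set daily rhythms in the gut epithelium.

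The 6 stretches of DNA below lie just before the start of 7 members and are shown because the results turn on these genes. Acot1, Slc25a20 and Acsl1 followed food access, and Cpt1a and Fabp1 had the largest level changes of the uptake group in a knock out. Fabp1 passed the filter on low values only through the knock outs, so its rise there was set by the filter. Hadha and Hadhb, the subunits of the trifunctional protein, lie head to head with only the last stretch between them. The sequences are from the mouse assembly GRCm38.p6 (mm10), plus strand, 5′ to 3′, and each ends before the RefSeq start. Capitals mark the hexamer AGGTCA, or a direct repeat of 2 hexamers AGGNCA with 1 base of any kind between them, on either strand, the letters read by many nuclear receptors and by PPAR with RXR.
Acot1, chr12:84009252-84009489: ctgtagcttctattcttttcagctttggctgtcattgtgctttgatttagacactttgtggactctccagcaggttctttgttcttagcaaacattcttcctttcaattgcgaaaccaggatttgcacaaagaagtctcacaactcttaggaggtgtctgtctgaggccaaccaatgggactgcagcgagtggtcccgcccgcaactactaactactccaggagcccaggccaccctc
Slc25a20, chr9:108661886-108662087: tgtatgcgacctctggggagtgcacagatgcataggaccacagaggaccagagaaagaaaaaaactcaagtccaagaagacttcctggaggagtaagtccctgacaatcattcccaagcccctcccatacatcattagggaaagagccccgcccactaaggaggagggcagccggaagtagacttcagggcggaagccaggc
Acsl1, chr8:46470787-46471036: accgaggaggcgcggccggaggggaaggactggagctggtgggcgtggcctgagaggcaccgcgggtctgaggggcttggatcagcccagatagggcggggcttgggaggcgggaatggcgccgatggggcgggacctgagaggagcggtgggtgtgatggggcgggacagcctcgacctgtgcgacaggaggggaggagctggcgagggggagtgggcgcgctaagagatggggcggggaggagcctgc
Cpt1a, chr19:3323051-3323284: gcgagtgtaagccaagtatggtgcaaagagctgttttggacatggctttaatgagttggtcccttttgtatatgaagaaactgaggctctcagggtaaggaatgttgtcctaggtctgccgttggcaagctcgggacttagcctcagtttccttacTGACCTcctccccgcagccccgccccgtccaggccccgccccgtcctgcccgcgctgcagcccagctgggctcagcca
Fabp1, chr6:71199629-71199826: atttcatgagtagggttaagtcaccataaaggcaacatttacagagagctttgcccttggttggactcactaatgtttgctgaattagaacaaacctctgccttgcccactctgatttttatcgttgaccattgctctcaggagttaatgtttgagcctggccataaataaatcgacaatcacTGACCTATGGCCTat
between Hadha and Hadhb, chr5:30155163-30155247: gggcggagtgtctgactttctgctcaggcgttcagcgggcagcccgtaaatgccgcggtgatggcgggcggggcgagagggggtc
The Cpt1a stretch lies inside the annotated gene, after an alternative first exon.

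In the 250 bases before a RefSeq start, 29 members had an entry, with 31 starts. AGGTCA on either strand stood before 6 of these members, Acadm, Acadvl, Cd36, Cpt1a, Fabp1 and Plin2, and before 14.0% of all 32851 listed starts. The direct repeat, which can hold AGGTCA, stood before Fabp1 alone among the members and before 0.338% of all starts. No member had the E-box CACGTG (6.02% of all starts), the D-box TTANGTAA (2.06%) or the cAMP response element TGACGTCA (1.55%) in this window. These matches describe letters and not bound sites.

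The scale factors that set libraries on a common level ran from 0.297 to 1.48. They were under 0.6 in 14 libraries, 9 of the Bmal1 knock out (ZT0, ZT12, ZT16 and ZT20) and 5 of high salt night fed mice (ZT8 and ZT12). Many counts that rest on these, and some single members, are given with and without them. The fit without them also used cosine and sine terms of 24 h in place of 1 mean per time. Calls lost in that fit therefore cannot be credited to these libraries alone. The absolute depth is unknown from FPKM. Relative depth, read from the steps of single reads among low values, ran from 0.624 to 1.38 times the median, and was 0.946 to 1.07 in the 9 low-scale Bmal1 knock out libraries and 0.697 to 1.1 (median 0.812) in the 5 low-scale high salt night fed ones. The 10 colon epithelium markers had summed medians of 10480 to 13410 rescaled FPKM in the 7 conditions. Of the markers of other cells, 2 of 8 for smooth muscle, 2 of 10 for adipocytes, 0 of 6 for endothelium and 3 of 6 for macrophages passed the filter. Their summed medians ran from 5.17 to 6.43, from 31.5 to 73.8, from 0.184 to 0.662 and from 2.75 to 4.40 in the 7 conditions. Means were under 0.1 in every condition for Myh11, Cnn1 and Des of smooth muscle, Adipoq, Lep and Plin1 of adipocytes, Adgre1 of macrophages and 5 of the endothelial markers, while Pck1, on the adipocyte list, had 26.2 to 67.2. In bulk RNA, fewer cells of a type and less RNA per cell cannot be told apart. In the Bmal1 knock out, Bmal1 itself, listed as Arntl, had 2.87 to 6.28 rescaled FPKM (median 4.02) against 2.25 to 19.2 in the wild type (median 8.27). Its rhythm differed between these genotypes (distance 1.28, limma adjusted p = 1.11e-08), and part of its transcript was still counted.

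Most of the pathway was well expressed in wild type colon. Etfb, a subunit of the electron transfer flavoprotein, led with a mean of 182.5 rescaled FPKM, which is a level per transcript length, followed by Ech1, an isomerase for fatty acids with double bonds, at 153.2, Hadh, a dehydrogenase of the spiral, at 141.3, and Acads, the short-chain acyl-CoA dehydrogenase, at 135.6. All of these were above the 96th percentile of the rows tested. The carnitine route was also strong: Slc25a20, the translocase that carries acylcarnitines into mitochondria, had 72.4, Cpt1a, the rate-limiting carnitine palmitoyltransferase of the outer membrane, 59.2, and its inner partner Cpt2 35.0. The genes best known as fasting markers were low: Pdk4, a kinase that shuts off pyruvate dehydrogenase, had 3.60, the thioesterases Acot1 and Acot2 had 3.17 and 2.06, and Angptl4, a secreted inhibitor of lipoprotein lipase, had 2.16. Plin2, the lipid droplet coat protein, at 49.2, and Bdh1, the ketone body dehydrogenase, at 45.1 were exceptions in that group. Fabp1, the liver-type fatty acid binding protein, had 0.634 and passed the filter only through the knock outs.

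The 4 feeding groups separate food from light, since the fasting phase is light in night fed mice and dark in day fed mice. For each gene the difference between mid-light (ZT4 and ZT8) and mid-dark (ZT16 and ZT20) was split into a part that follows food access, fasting minus feeding averaged over both schedules, and a part that follows the light-dark cycle. On low salt 13 of 32 members followed food access (limma, adjusted p under 0.05), 9 higher in the fasting phase and 4 higher in the feeding phase, where 37.6% of all genes tested did (14.2% and 23.5% in these directions). On high salt 15 did, 9 higher and 6 lower in the fasting phase, against 30.1% of all genes (16.3% and 13.9%). Without the libraries of 1 replicate number the counts were 5 to 10 and 8 to 11. The shares of all genes under these omissions are not given here, so these counts stand without a background. All 3 macrophage markers tested were higher in the fasting phase on low salt (median 0.50) and 1 on high salt, and their part in these results was not tested. The share of members was 40.6% on low salt, near the background, and 46.9% on high salt, above it. Members higher in the fasting phase were a larger share than among all genes on both diets. Those lower were a smaller share on low salt and a larger one on high salt. The median over the members was 0.08 on low salt (−0.04 over all genes) and 0.02 on high salt (−0.01). The thioesterase Acot1 was the member that rose most in the fasting phase and the acyl-CoA synthetase Acsl1 the one that fell most, on both diets. Cpt1a, Pdk4 and Fabp1 did not pass the test on either diet.

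**Figure D1:**
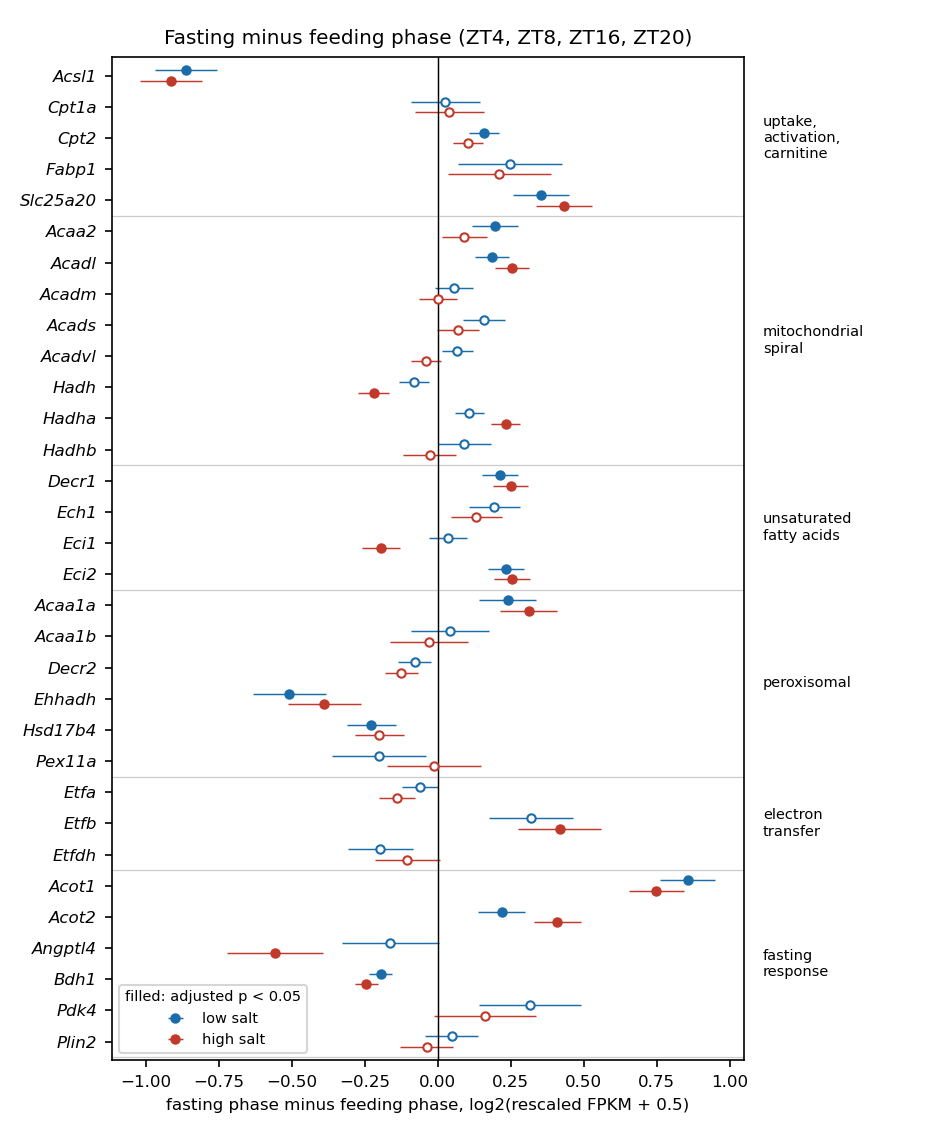
Fasting minus feeding phase for the 32 members tested, grouped by role, in log2 units (points, with bars of ± SE from the model) on low salt and on high salt. Filled points passed adjusted p under 0.05. Acot1 at 0.86 and 0.75 and Acsl1 at −0.86 and −0.91 stand at the ends, and most other members lie within 0.5 of 0.

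No member followed the light-dark cycle on either diet by limma. At an unadjusted p under 0.05 there were 7 on low salt and 1 on high salt, and the share called among all genes was 4.47% and 0.0264%. The food access difference also did not differ between the diets for any member (0 of 32, 1 at an unadjusted p under 0.05, 0.756% of all genes), in a contrast added after the data were seen. Without rescaling, which put the all-gene median on high salt at −0.37, the high salt split became 1 higher and 19 lower. Without the low-scale libraries it was 7 higher and 2 lower, and Acaa1a, Etfb, Angptl4, Eci1, Ehhadh and Hadh lost their high salt call. The shares of all genes in these settings are not given here.

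Among the genes of uptake, activation and the carnitine route, Acsl1, which activates long-chain fatty acids, was the clearest. In low salt day fed mice its rescaled FPKM were 4.51, 5.42 and 6.21 (lowest, median and highest of 6 libraries) in mid-light, while food was there, and 2.04, 2.46 and 3.51 in mid-dark. In high salt night fed mice they were 1.81, 2.26 and 2.85 in mid-light, without food, and 3.90, 4.59 and 4.95 in mid-dark. High salt day fed mice had 4.23, 4.80 and 5.37 against 1.37, 2.28 and 3.09. The phases did not overlap in these 3 groups, and in each the fed phase was the high one. Low salt night fed libraries ran from 2.11 to 4.61 in mid-light and from 3.95 to 8.45 in mid-dark, with an overlap. The food access difference of Acsl1 was −0.86 (SE 0.11, adjusted p = 2.81e-08) on low salt and −0.91 (SE 0.11, adjusted p = 4.12e-09) on high salt, and the call held under each alternative tried.

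Slc25a20 moved the other way. Low salt night fed libraries had 66.1, 90.3 and 102.0 (lowest, median, highest) in mid-light and 52.6, 64.8 and 78.2 in mid-dark, and low salt day fed libraries 54.8, 61.1 and 75.7 against 56.7, 74.9 and 98.9. The phases overlapped in both groups, with the higher median in the fasting phase. Its food access difference was 0.35 (SE 0.10, adjusted p = 0.00499) on low salt and 0.43 (SE 0.10, adjusted p = 0.000568) on high salt. It was 0.06 on low salt when all time points were used (ZT0, ZT4 and ZT8 against ZT12, ZT16 and ZT20) and 0.41 with ZT4, ZT8 and ZT12 against ZT16, ZT20 and ZT0. On high salt these splits gave 0.19 and 0.39, and the FPKM as deposited gave 0.02. Cpt2 passed on low salt only, at 0.16, with 0.10 on high salt. Cpt1a stood at 0.03 (95% interval −0.21 to 0.26) on low salt and 0.04 (−0.19 to 0.27) on high salt, and Fabp1 at 0.25 and 0.21, both under the threshold.

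Of the 8 enzymes of the mitochondrial spiral, 2 rose in the fasting phase on low salt. They were Acadl, the long-chain acyl-CoA dehydrogenase, by 0.18 and Acaa2, the thiolase, by 0.19. On high salt Acadl (0.25) and Hadha (0.23) rose and Hadh (−0.22) fell. Hadh stood at −0.11, under the threshold, without the low-scale libraries. The call of Acaa2 was lost when any 1 of 14 of the 72 feeding libraries was left out. Of the 4 auxiliary enzymes, Eci2, an enoyl-CoA isomerase also found in peroxisomes, rose by 0.23 and 0.25 on low and high salt and Decr1, the mitochondrial dienoyl-CoA reductase, by 0.21 and 0.25. Its relative Eci1 stood at 0.03 on low salt and fell by 0.19 on high salt, a call lost without any 1 of 3 libraries (high salt night fed ZT4 replicate 3 and ZT20 replicate 3, high salt day fed ZT4 replicate 3). All of these are changes of under 0.3 log2 units. With FPKM as deposited, Acadl, Hadha, Eci2 and Decr1 stood at −0.15, −0.17, −0.15 and −0.15 on high salt, under the threshold.

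The peroxisomal group was split. Ehhadh, the bifunctional enzyme of peroxisomal oxidation, was higher in the feeding phase, with a food access difference of −0.51 (SE 0.13, adjusted p = 0.00222) on low salt and −0.39 (SE 0.13, adjusted p = 0.0158) on high salt. In low salt day fed mice its libraries had 8.23, 10.4 and 12.8 (lowest, median, highest) in mid-light and 5.20, 7.08 and 9.10 in mid-dark, which overlapped at the edge. The high salt call was lost, at adjusted p = 0.0512, without the high salt night fed library of ZT4 replicate 3. Hsd17b4, the D-bifunctional enzyme of very long chains, fell in the fasting phase by 0.23 on low salt and stood at −0.20 on high salt, under the threshold. The thiolase Acaa1a rose, by 0.24 and 0.31, but its low salt call was lost without any 1 of 31 libraries and its high salt call without high salt day fed ZT16 replicate 1 (adjusted p = 0.0527). Acaa1a and its near copy Acaa1b share sequence, so how reads were split between them is uncertain. Of the electron transfer genes only Etfb passed, at 0.42 on high salt, with 0.32 on low salt under the threshold. That call was lost without any 1 of 3 high salt day fed libraries (ZT4 replicate 1, ZT16 replicate 1 and ZT20 replicate 2).

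In the fasting response group Acot1, which frees fatty acids from acyl-CoA in the cytosol, changed most. In low salt day fed mice it had 1.63, 2.41 and 2.62 (lowest, median, highest) in mid-light and 4.51, 5.07 and 5.79 in mid-dark, and in high salt day fed mice 1.84, 2.51 and 3.63 against 4.46, 5.10 and 6.29. In both day fed groups every fasting library was above every fed one. Low salt night fed libraries had 2.80, 3.34 and 4.29 in mid-light against 0.996, 1.81 and 3.20 in mid-dark, and high salt night fed libraries 2.52, 3.71 and 5.28 against 1.76, 2.35 and 2.64, each with an overlap. The food access difference was 0.86 (SE 0.09, adjusted p = 1.67e-09) on low salt and 0.75 (SE 0.09, adjusted p = 3.42e-08) on high salt. The call of Acot1 held under each alternative tried, though not the size. On high salt the difference was 0.30 with ZT4, ZT8 and ZT12 against the other times and 0.41 with FPKM as deposited. Its mitochondrial neighbour on chromosome 12, Acot2, rose by 0.22 and 0.41. The 2 genes are near copies, so reads may be split between them, and the low salt call of Acot2 was lost without any 1 of 6 libraries.

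Bdh1, which converts β-hydroxybutyrate and acetoacetate into each other, was higher in the feeding phase by a small and tight margin. Low salt night fed libraries had 37.1, 39.9 and 41.6 (lowest, median, highest) in mid-light and 46.3, 47.7 and 52.8 in mid-dark, and high salt night fed libraries 29.7, 36.6 and 40.2 against 41.4, 45.3 and 50.8. The phases did not overlap in either night fed group, and overlapped in both day fed groups. Its food access difference was −0.20 (SE 0.04, adjusted p = 0.000152) on low salt and −0.24 (SE 0.04, adjusted p = 2.29e-06) on high salt. Angptl4, known elsewhere in the body as a fasting-induced factor, was higher in the feeding phase on high salt, with −0.56 (SE 0.16, adjusted p = 0.00834), and stood at −0.16 on low salt, under the threshold. This high salt call was lost without replicate 2 (−0.22), without replicate 3 (−0.47) and without the low-scale libraries (−0.55). It was also lost with ZT0, ZT4 and ZT8 against the other times (−0.20), and held without replicate 1 (−0.99). Pdk4 stood at 0.31 (95% interval −0.03 to 0.66) on low salt and 0.16 (−0.18 to 0.50) on high salt.

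**Figure D2:**
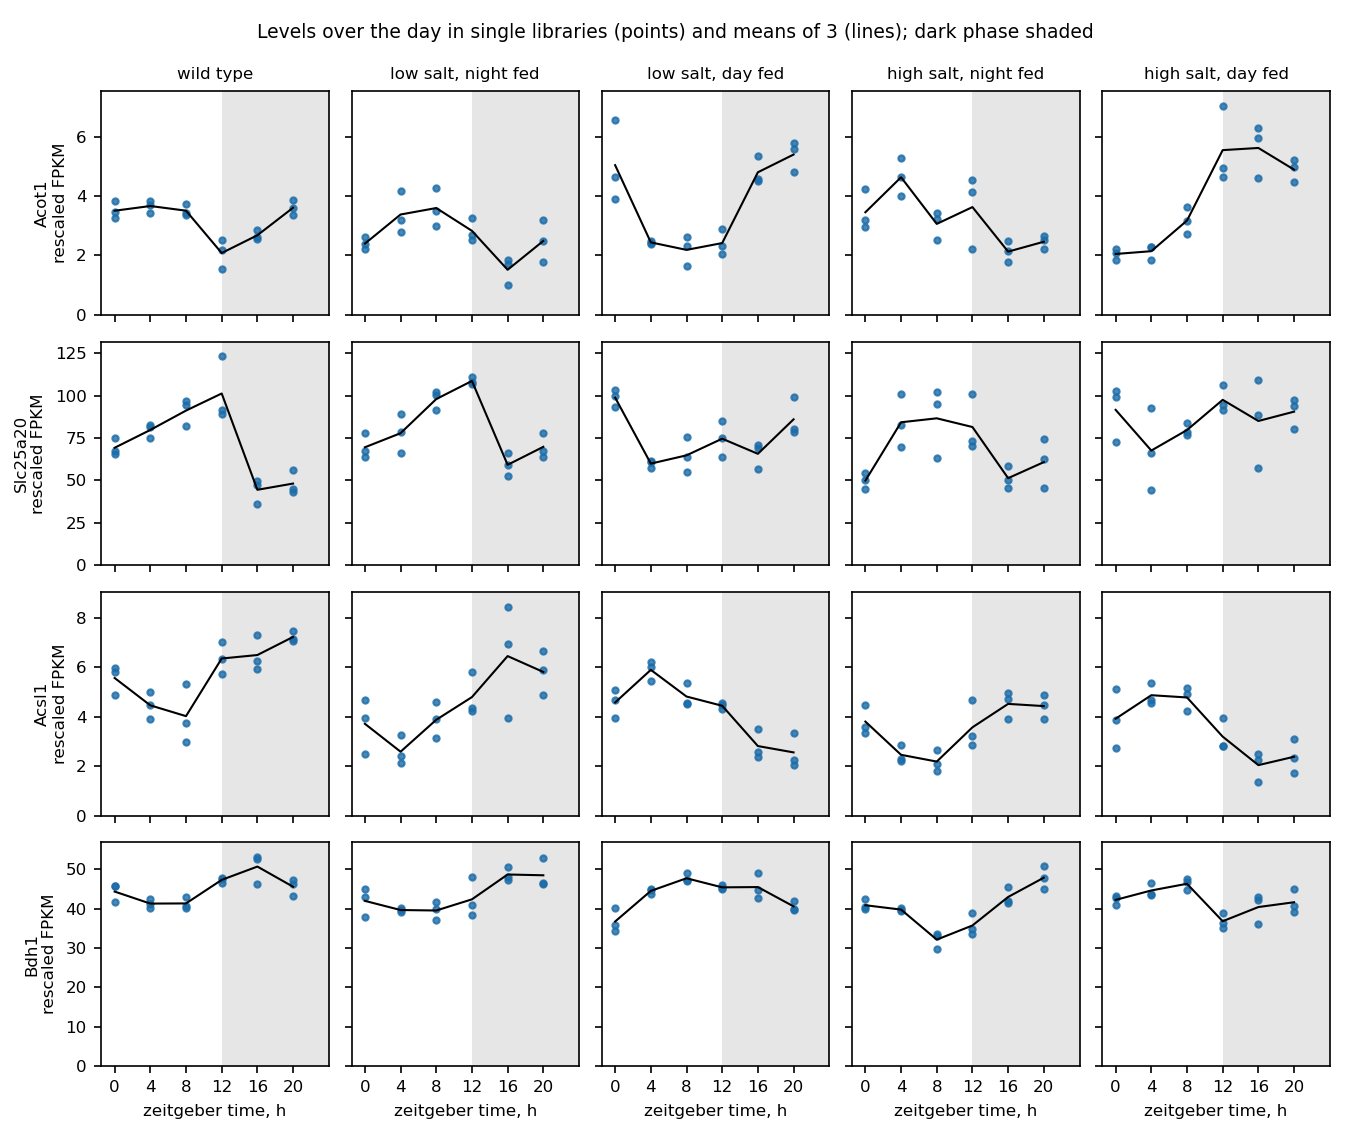
Rescaled FPKM of Acot1, Slc25a20, Acsl1 and Bdh1 at the 6 time points (ZT in hours, dark shaded) in wild type and the 4 feeding groups; points are single libraries and lines join the means of 3. Acot1 in mid-dark reaches 4.46 to 6.29 in the day fed groups, above all their mid-light libraries, and Acsl1 is turned the other way between night and day feeding.

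The wild type, with food at all times, had 11 of 32 members rhythmic over 24 h (limma F test on cosine and sine terms, 17.7% of all genes). Angptl4 had the widest rhythm, an amplitude of 0.85 log2 units with its peak at ZT18.4. Its libraries ran from 0.422 to 1.26 (median 0.790) in mid-light and from 1.77 to 4.03 (median 3.43) in mid-dark, with no overlap. Slc25a20 peaked at ZT7.36 (amplitude 0.54), with 75.3 to 97.1 in mid-light and 36.2 to 55.9 in mid-dark, again apart. Pdk4 peaked at ZT0.61 (0.54), Acsl1 at ZT17.9 (0.38), Plin2 at ZT11.8 (0.37), Eci2 at ZT8.87 (0.37), Acaa1a at ZT9.63 (0.31) and Acot1 at ZT1.31 (0.31). Acadl, Hadha and Bdh1 had amplitudes of 0.22, 0.15 and 0.14. Only 1 member was rhythmic in the wild type in the FPKM as deposited, and 4 to 6 were without the libraries of 1 replicate number.

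Under night feeding 15 members were rhythmic on low salt (22.6% of all genes) and 27 on high salt (57%). Under day feeding there were 14 on low salt (42.2%) and 15 on high salt (31.6%). The count for high salt night fed mice fell to 9 without the low-scale libraries. Without 1 replicate number the night fed counts were 9 to 12 and 13 to 25 and the day fed counts 4 to 7 and 4 to 12. Acsl1 peaked at ZT16.4 and ZT18.4 under night feeding of low and high salt and at ZT5.74 and ZT5.26 under day feeding. Acot1 peaked at ZT5.86 and ZT4.86 under night feeding. Under day feeding it peaked at ZT20.1 on low salt and ZT15.0 on high salt, and its rhythm differed between these groups (distance 0.87, SE 0.11, adjusted p = 6.29e-07).

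Taken within 1 group, mid-light and mid-dark differed for 7 members in the wild type (13.4% of all genes), 21 in the Bmal1 knock out (56.9%) and 9 in the MR knock out (19.9%). Night fed mice had 8 such members on low salt (9.99%) and 12 on high salt (18.8%), and day fed mice 9 (34.5%) and 3 (7.99%). Without the low-scale libraries 10 differed in the Bmal1 knock out and 5 in high salt night fed mice. That fit, with its cosine and sine terms, also gave 3 in low salt night fed mice, which held no low-scale library. Without 1 replicate number the counts were 3 to 6, 8 to 22 and 0 to 4 in the 3 genotypes, 3 to 4 and 6 to 8 under night feeding and 2 to 4 and 3 to 4 under day feeding.

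The time points of the day fed mice show where Acot1 parted. At ZT0 the low salt libraries had 4.64, 3.91 and 6.56 rescaled FPKM and the high salt libraries 1.85, 2.23 and 2.07. At ZT12 the low salt libraries had 2.89, 2.05 and 2.30 and the high salt libraries 4.96, 7.04 and 4.64. The 2 diets did not overlap at either time, and high salt was lower at the first and higher at the second. In mid-light and mid-dark the day fed groups of both diets had the same direction, low in mid-light and high in mid-dark.

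The rhythm of 9 members differed between high and low salt in day fed mice, where 11.3% of all genes did. After Acot1 the widest were Pdk4 (distance 0.79, adjusted p = 0.0198), Acot2 (0.51), Eci2 (0.40) and Acaa2 (0.39), and the others were Ech1, Eci1, Hadha and Bdh1. In night fed mice 7 differed (12.3% of all genes): Cpt1a (0.48, adjusted p = 0.0396), Acot2 (0.46), Hadhb, Hsd17b4, Hadh, Decr2 and Bdh1. None of these 7 remained without the low-scale libraries, all 5 of which in the feeding groups are high salt night fed.

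The regulators of this pathway and its other genes were taken from lists fixed with the members. Of 13 regulators tested, 8 followed food access on low salt (2 higher and 6 lower in the fasting phase) and 5 on high salt (2 and 3), beside 37.6% and 30.1% of all genes. Ppara, the receptor that drives the fasting response in liver, was lower in the fasting phase on both diets, at −0.56 (adjusted p = 0.000396) and −0.61 (adjusted p = 7.8e-05). Nr1d1, the clock repressor REV-ERBα, was higher, by 1.20 and 2.30. Ppard, which is the more abundant receptor here with a wild type median of 50.9 rescaled FPKM against 4.35 for Ppara, fell by 0.20 on low salt and stood at 0.11 on high salt. Pparg stood at 0.03 on low salt and fell by 0.21 on high salt. The coactivator gene Ppargc1a fell on low salt, by 0.45, and the transcription factor gene Creb3l3 on high salt, by 0.57.

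Of 62 further genes of the pathway tested, 25 followed food access on low salt (7 higher and 18 lower in the fasting phase) and 22 on high salt (5 and 17). These are 40.3% and 35.5% of the list, near the 37.6% and 30.1% of all genes. Auh, an enoyl-CoA hydratase of leucine breakdown, rose by 0.41 and 0.48. Acsl4, a synthetase for arachidonic acid, had −0.56 and −0.50, Ucp2, an uncoupling protein of the inner membrane, −0.29 and −0.25, and Cyp4f14, an ω-hydroxylase, −0.43 and −0.42. Like Acsl1, Acsl4 was thus lower in the fasting phase.

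Each condition came as its own table, and whether the authors scaled the 7 tables together is not stated, so levels set across tables rest on the rescaling used here. Levels averaged over the day differed between the Bmal1 knock out and the wild type for 23 of 32 members, 8 higher and 15 lower, where 80.3% of all genes did (31.1% higher and 49.2% lower). The share of members, 71.9%, was not above that of all genes, and the median over the members, −0.12, was close to that of all genes, −0.13. Cpt1a fell most, and Etfb rose most. The members that kept call and direction under each alternative tried were all lower in the knock out: Cpt1a, Acsl1, Angptl4, Plin2, Slc25a20 and Hadhb. Of 9 surface colonocyte markers 8 also changed, 2 higher and 6 lower, with a median of −0.88. Their summed level had a median of 3245 (2331 to 4881) against 4172 (3332 to 5182) in the wild type, and their part in these results was not tested. Without rescaling the all-gene median stood at −0.89 and the split was 2 higher and 30 lower. This was among the alternatives tried, so the list of members that held favours those lower in the knock out.

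**Figure D3:**
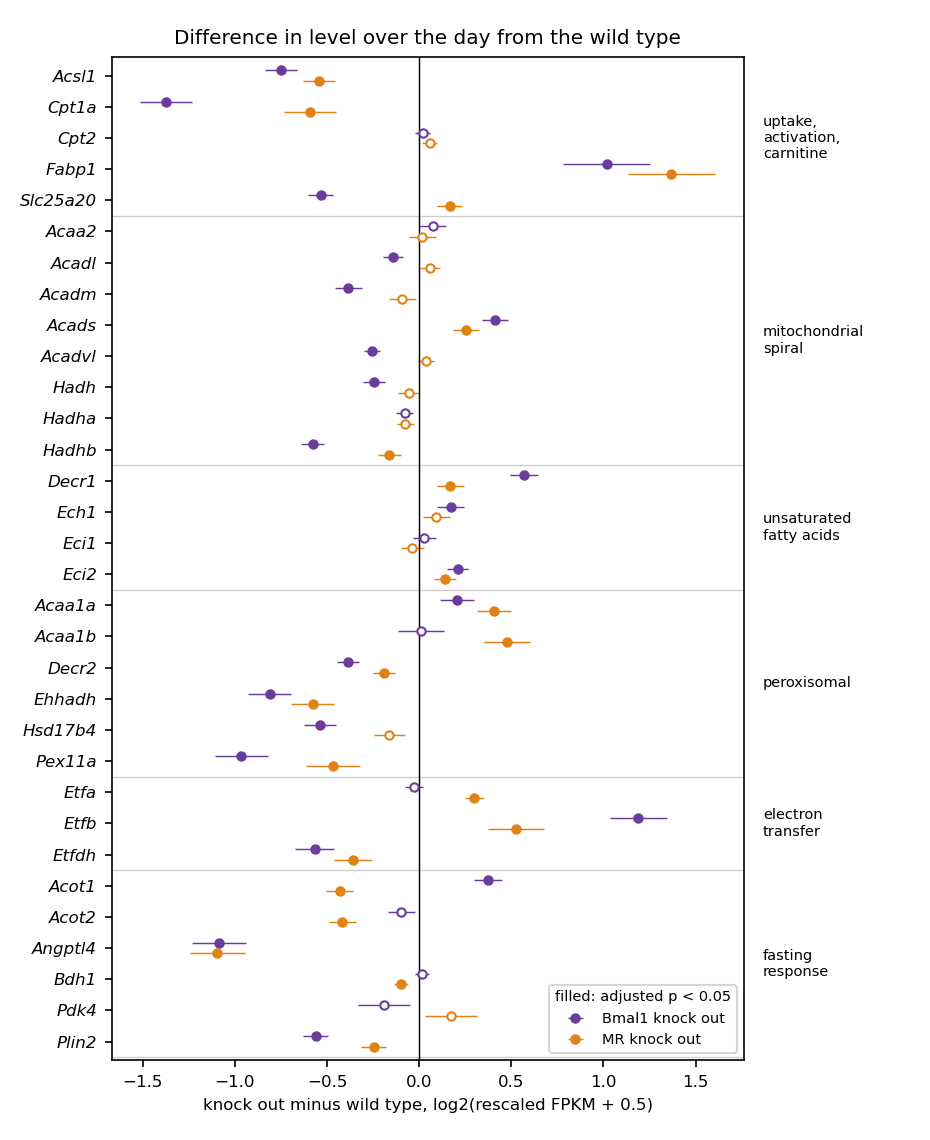
Level difference averaged over the 6 time points, knock out minus wild type, in log2 units (points, bars ± SE from the model) for the Bmal1 and the MR knock out, which share the wild type libraries. Filled points passed adjusted p under 0.05. Cpt1a stands at −1.37 in the Bmal1 and −0.59 in the MR knock out, and Fabp1, which passed the filter only through the knock outs, at 1.02 and 1.37.

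Cpt1a had 11.7, 16.8 and 55.1 rescaled FPKM (lowest, median and highest of 18 libraries) in the Bmal1 knock out and 28.4, 61.2 and 86.8 in the wild type. The ranges overlapped. The knock out was lowest at ZT12 to ZT20 and nearest the wild type at ZT4, though below it there too. At ZT0 the knock out libraries had 18.1, 15.6 and 45.6 and the wild type 59.7, 50.8 and 70.6. At ZT8 they had 21.8, 53.8 and 25.3 against 86.8, 69.6 and 38.1. At ZT4 the knock out libraries had 55.1, 50.8 and 44.3 and the wild type 63.9, 62.6 and 71.6, while at ZT16 the knock out had 13.8, 12.7 and 11.7 and the wild type 28.4, 44.3 and 50.1. The difference over all times was −1.37 (SE 0.14, adjusted p = 8.16e-11), lower at 6 of 6 times. The libraries at ZT12 to ZT20 are largely the low-scale ones, while of those at ZT0, ZT4 and ZT8 only ZT0 replicate 2 is.

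Acsl1 had 2.08, 2.85 and 6.55 (lowest, median, highest) in the knock out and 2.97, 5.87 and 7.48 in the wild type, a difference of −0.75 (SE 0.09, adjusted p = 8.78e-10). Slc25a20 had 28.0, 46.8 and 73.8 against 36.2, 75.1 and 123.3, a difference of −0.53. Both were thus lower in the knock out, with overlap. Fabp1 was higher, at 0.80, 1.38 and 3.33 against 0.107, 0.433 and 2.81, by 1.02 (SE 0.24, adjusted p = 0.000198). As it passed the filter only through the knock outs it had to differ, and it stood at −0.01 with the score of transcript length as a covariate. Etfb had 157.1, 492.9 and 639.3 against 125.8, 174.8 and 405.2, and rose by 1.19 (SE 0.15, adjusted p = 1.14e-08), which became 0.13 (adjusted p = 0.18) with the same covariate.

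Of the peroxisomal members, Ehhadh was lower by 0.81 on the log2 scale (difference −0.81) and Pex11a, a factor of peroxisome division, stood at −0.96, and with the length covariate the differences were −0.13 and −0.12, past no threshold. In the spiral, Hadhb was lower (−0.58, SE 0.06) while Hadha, its head-to-head neighbour and partner, stood at −0.08 and did not pass. In the fasting group Angptl4 had 0.0, 0.514 and 1.61 in the knock out and 0.422, 1.95 and 4.03 in the wild type, a difference of −1.09 (SE 0.15, adjusted p = 2.91e-08). Among the genotypes only the wild type reached the mean of at least 1 that the filter asks. The part of the filter in the difference of Angptl4 was not tested. Plin2 was lower too (−0.56). Pdk4 (−0.19) and Bdh1 (0.01) did not pass. The score of transcript length, which measures how long against short transcripts stand in a library, averaged 0.17 in the wild type and −0.10 in the Bmal1 knock out. With it as a covariate 14 members were called. The part of RNA quality in these results was not tested.

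The Bmal1 knock out had 21 rhythmic members (56.7% of all genes). In the fit without the low-scale libraries, which also changed the time terms, 3 were rhythmic, and without replicate 2 there were 7. Its rhythm differed from the wild type for 15 members (31.2% of all genes), among them Etfb, Pex11a, Cpt1a, Acsl1 and Ehhadh with distances of 0.71, 0.70, 0.67, 0.58 and 0.57. None of the 15 remained without the low-scale libraries or without replicate 2. Acsl1, which peaked at ZT17.9 in the wild type, did not pass the rhythm test in the knock out. Slc25a20 peaked at ZT6.70 there with an amplitude of 0.46, and its mid-light libraries (51.7 to 73.8) lay above all mid-dark ones (28.0 to 41.9), as in the wild type. All these mid-dark libraries but ZT20 replicate 2 are low-scale, and no mid-light one is. The part of the scale factors in this difference was not tested.

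**Figure D4:**
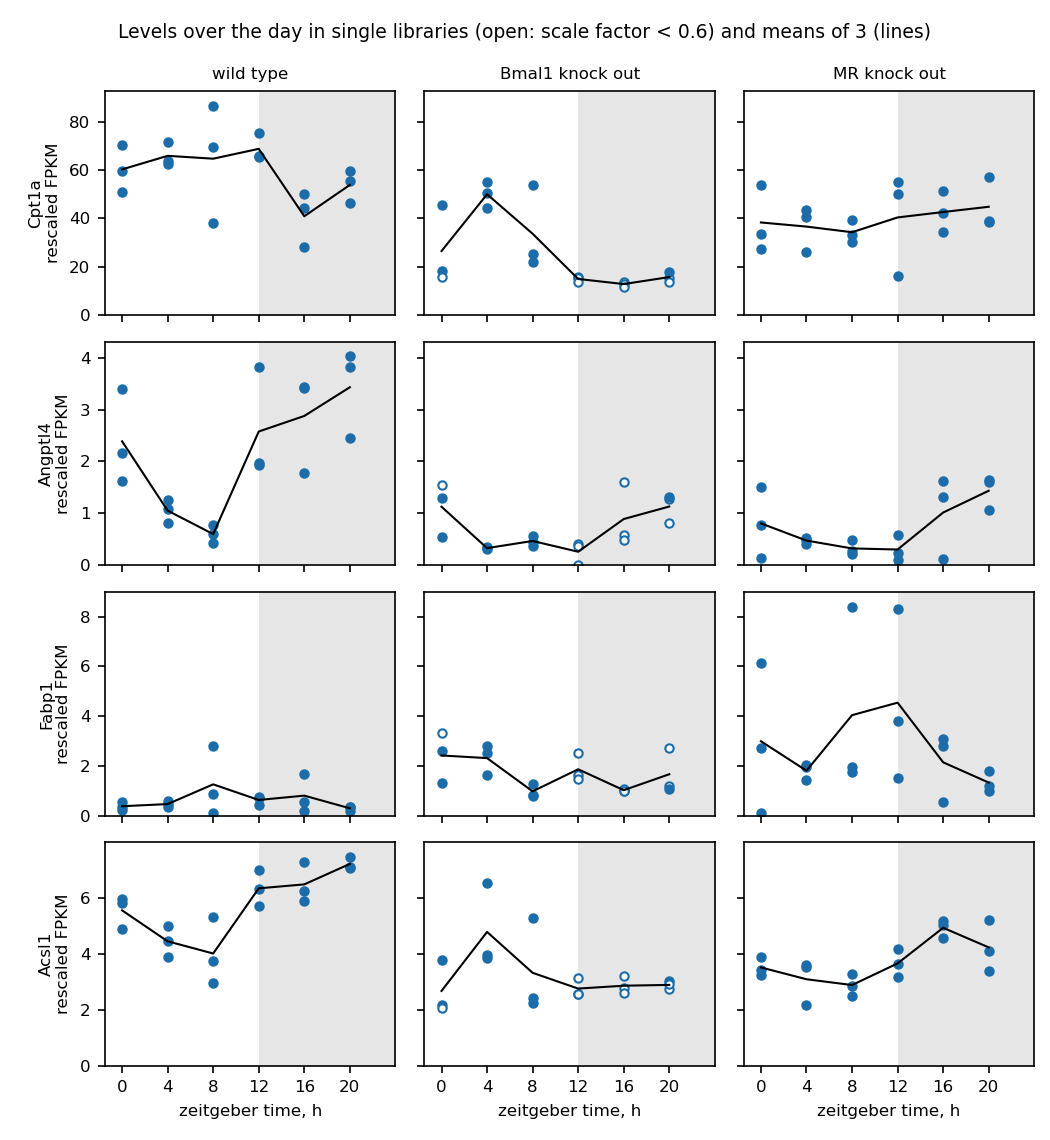
Rescaled FPKM of Cpt1a, Angptl4, Fabp1 and Acsl1 at the 6 time points (ZT in hours, dark shaded) in the wild type, the Bmal1 knock out and the MR knock out; points are single libraries, open where the scale factor was under 0.6, and lines join the means of 3. Cpt1a in the Bmal1 knock out lies at 11.7 to 17.9 in mid-dark, and most of these points are open.

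The MR knock out differed in level from the same wild type libraries for 21 members, 9 higher and 12 lower (66% of all genes, 24.7% higher and 41.3% lower). The members' median was −0.05 and that of all genes −0.08. Angptl4, Acsl1, Acot1, Acot2 and Plin2, all lower, kept call and direction under each alternative tried. Without 1 replicate number the count was 13 to 20. Without rescaling the split was 2 higher and 11 lower. As in the Bmal1 knock out, this alternative favours lower members in the list of those that held.

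Fabp1 had 0.106, 1.95 and 8.40 (lowest, median, highest) in the MR knock out and 0.107, 0.433 and 2.81 in the wild type. Most knock out libraries were above the wild type median but the ranges overlapped in full at the low end. The difference was 1.37 (SE 0.24, adjusted p = 9.07e-06), for a gene that passed the filter through the knock outs and so had to differ. Beside it, the summed level of 9 surface colonocyte markers had a median of 5296 and a highest value of 12100 in this genotype, against 4172 and 5182 in the wild type, and 8 of the 9 changed, 6 higher and 2 lower (median 0.48). That of 10 small intestine markers had a median of 66.4 (41.6 to 208.5) against 53.9 (38.3 to 253.5), with Lct under 0.1 in both. Their part in the result was not tested.

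Angptl4 had 0.103, 0.505 and 1.64 in the MR knock out, overlapping the wild type range of 0.422 to 4.03 (median 1.95), and differed by −1.10 (SE 0.15, adjusted p = 1.02e-07). Here too its mean was under the filter's threshold in the knock out and above it in the wild type. Acsl1 had 2.17, 3.56 and 5.22 and differed by −0.54 (SE 0.09, adjusted p = 1.96e-06), lower at 6 of 6 times. Acot1 and Acot2, opposite to Fabp1, were lower, with differences of −0.43 and −0.42. Cpt1a was lower (−0.59), Ehhadh too (−0.58), and Etfb was higher (0.53), but with the length covariate these were −0.08, −0.17 and −0.11 and did not pass. The peroxisomal thiolases Acaa1a and Acaa1b were higher, by 0.40 and 0.48, and stood at 0.05 and 0.14 with that covariate. Bdh1 was lower by a small margin (−0.10), a call lost without MR knock out ZT12 replicate 1, and Pdk4 (0.17) did not pass.

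In the MR knock out 8 members were rhythmic (21.7% of all genes), and 0 to 4 were without 1 replicate number. The widest were Pex11a (amplitude 0.60, peak ZT17.4), Angptl4 (0.59, ZT20.3) and Ehhadh (0.43, ZT20.3). No member's rhythm differed from the wild type by limma (5 at an unadjusted p under 0.05, 0.835% of all genes). Acsl1 peaked at ZT17.5 here and ZT17.9 in the wild type.

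Of the regulators, 9 of 13 changed in level in the Bmal1 knock out, all 9 lower, and 9 in the MR knock out, 2 higher and 7 lower, beside 80.3% and 66% of all genes. Nr1d1, a direct target of Bmal1, was at −3.12 in the Bmal1 knock out. Ppara was lower in both, at −0.91 (adjusted p = 2.31e-07) and −0.39 (adjusted p = 0.0136), as were Ppard (−0.38 and −0.18) and Ppargc1a (−0.90 and −0.71). Pparg was lower in the Bmal1 knock out (−0.24) and stood at 0.07 in the MR knock out. Of the 62 further pathway genes, 47 changed in the Bmal1 knock out (9 higher, 38 lower) and 38 in the MR knock out (12 higher, 26 lower). These are 75.8% and 61.3% of the list, near the 80.3% and 66% of all genes. In the first, the synthetase Acsl3 was at −1.31 and the pantetheinase Vnn1 at −1.47. In the second, Fabp2, the intestinal fatty acid binding protein, rose by 1.49 beside Fabp1, Cyp4f14 rose by 0.92 and the transporter Slc27a1 was at −0.77.

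The 4 feeding groups enter the comparisons of level by salt and by feeding time more than once, so these comparisons share libraries. Day against night feeding changed 2 members on low salt, where 3.33% of all genes changed: Fabp1 by 0.51 and Acot1 by 0.36. The call of Fabp1 was lost without any 1 of 16 libraries. On high salt it changed 10, 7 higher and 3 lower in day fed mice (27.6% of all genes, 14.7% and 12.9%), and 1 to 11 without 1 replicate number. Beside this, 5 of 9 surface colonocyte markers changed, 4 higher and 1 lower (median 0.37), and their part was not tested. High against low salt changed 11 members in night fed mice, 5 higher and 6 lower (35% of all genes, 15.4% and 19.6%), and 3 in day fed mice (14.8%). The effect of salt differed between day and night feeding for 9 members (19.7% of all genes), in a contrast added after the data were seen.

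Cpt1a, the carnitine palmitoyltransferase, had 32.7, 46.8 and 63.4 rescaled FPKM (lowest, median, highest) in high salt day fed mice and 19.9, 32.2 and 49.9 in high salt night fed mice, a difference of 0.48 (SE 0.10, adjusted p = 0.000245), higher at 6 of 6 times with overlapping ranges. This was the only one of the 10 calls that remained without the low-scale libraries. In low salt night fed mice Cpt1a had 27.3, 45.6 and 63.3, so that high salt night fed mice were lower, with a difference of −0.43 (SE 0.10, adjusted p = 0.000697), at −0.33 (adjusted p = 0.059) without the low-scale libraries. In the FPKM as deposited, day against night feeding on high salt gave 28 higher and 0 lower, and high against low salt in night fed mice 0 higher and 26 lower, while the medians of all genes were 0.41 and −0.45.

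**Figure D5:**
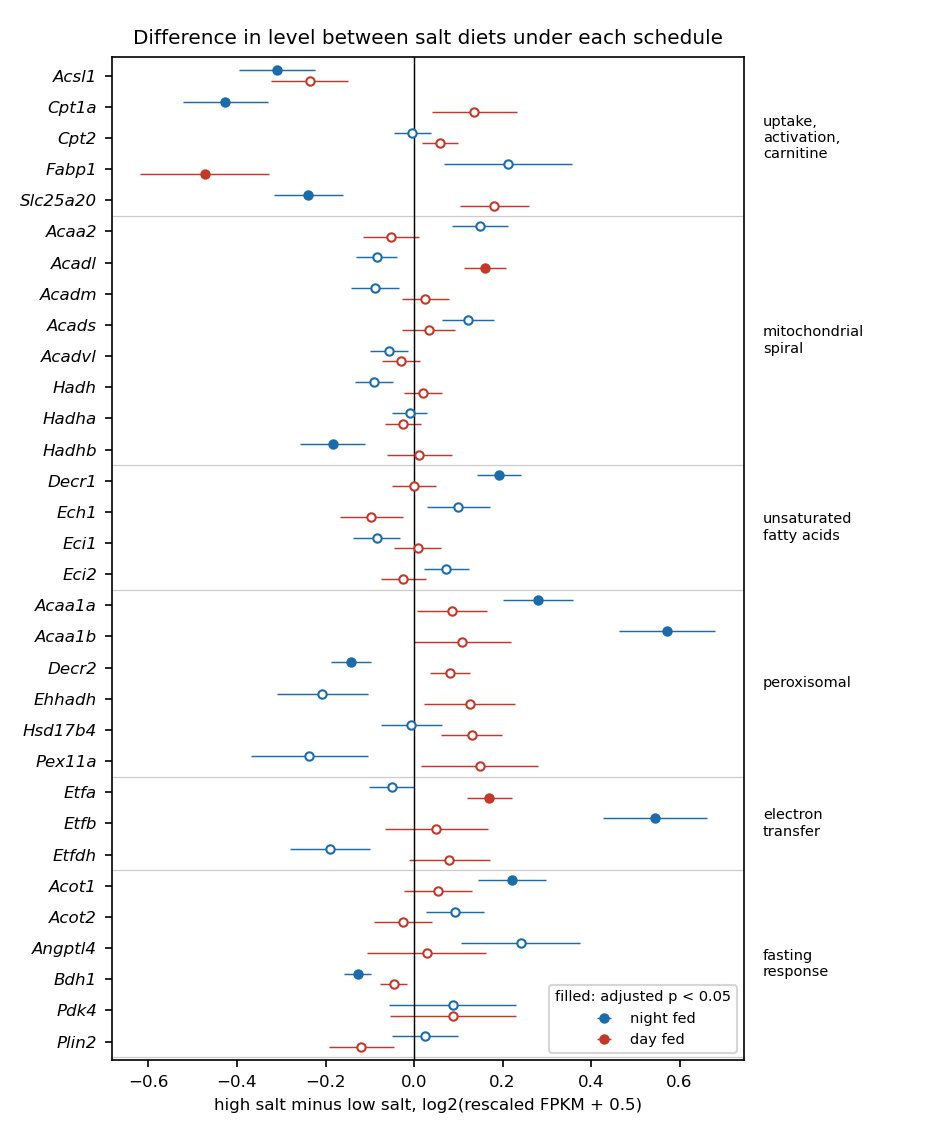
Level difference averaged over the 6 time points, high minus low salt, in log2 units (points, bars ± SE from the model) in night fed and in day fed mice, for the 32 members tested. Filled points passed adjusted p under 0.05. Acaa1b at 0.57, Etfb at 0.54 and Cpt1a at −0.43 stand out in night fed mice, and Fabp1 at −0.47 in day fed mice.

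Acaa1b had 8.89, 15.6 and 23.5 in high salt night fed mice and 6.47, 10.9 and 15.3 in low salt night fed mice, higher at 6 of 6 times, by 0.57 (SE 0.11, adjusted p = 7.47e-05). Etfb had 190.6, 322.0 and 566.4 against 125.6, 206.5 and 368.4 and rose by 0.54 (SE 0.12, adjusted p = 0.000351). Both ranges overlapped, and both genes remained without the low-scale libraries but not with FPKM as deposited (0.09 and 0.05). Acsl1 was lower (−0.31) and Acaa1a higher (0.28), and neither remained without the low-scale libraries. In day fed mice Fabp1 was lower on high salt, with 0.083, 0.352 and 1.32 against 0.171, 0.761 and 2.13 and a difference of −0.47 (SE 0.15, adjusted p = 0.0200), and Etfa (0.17) and Acadl (0.16) were higher. Pdk4, Angptl4 and Bdh1 did not change with salt in day fed mice past the threshold (0.09, 0.03 and −0.05).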

How the data were processed

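The deposited values are FPKM, made by the authors with TopHat2 2.1.1 and Cufflinks 2.2.1 on mm10, per the submitters' processing notes; their annotation and options were not given in the sources used here. RNA was taken with TRIzol and made into stranded mRNA libraries, per the labels' protocols. The FPKM were divided by median-of-ratios factors over 6966 genes with at least 1 in every library, and log2(value + 0.5) was fitted with limma 3.58.1 in R 4.3.3 (trend and robust variance), separately for 54 genotype and 72 feeding libraries, with 1 mean per group and time. Benjamini-Hochberg adjustment ran over all 11377 rows tested, with a threshold of 0.05. Rhythms are cosine and sine terms of 24 h, and a rhythm difference is the distance between 2 such vectors. The contrasts for diet differences in food access and in the salt effect were added after the data were seen, and so were the alternatives for them and for the counts of regulators and other pathway genes. The scripts were tested on simulated data. Members and lists were chosen with earlier results of these data known. The genes named are up to 8 called members per comparison with the largest difference, then Cpt1a, Pdk4, Angptl4, Fabp1 and Bdh1; of other genes, Ppara, Ppard, Pparg, Nr1d1 and up to 4 with the smallest adjusted p, except that some genes of this rule are not reported here. Some members beyond the 8, the genes that held under each alternative, Acot1 by time point in day fed mice, Fabp2 and Arntl were named after their values were seen. Of the pathway list 75 genes were found and 62 tested, and of 14 regulators 13. Replicate numbers did not pair libraries. Gene coordinates are from GENCODE and promoter starts from RefSeq, both on GRCm38.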

Additional observations from a re-analysis of the deposited data

Results flagged for a closer look

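In 9 members the effect of high against low salt on the level differed between day fed and night fed mice, by limma's test of that difference, where 19.7% of all genes did. On the log2 scale the day fed minus night fed difference of the salt effect was 0.56 for Cpt1a, 0.42 for Slc25a20, 0.25 for Acadl, 0.22 for Decr2 and 0.22 for Etfa, all 5 with a salt effect that was higher by day. It was −0.69 for Fabp1, −0.49 for Etfb, −0.46 for Acaa1b and −0.19 for Decr1, with a lower salt effect by day. For Cpt1a the salt effect was −0.43 by night and 0.14 by day. For Fabp1 it was 0.21 by night and −0.47 by day. None of the 9 passed without the 5 low-scale high salt night fed libraries, where the values of Cpt1a and Fabp1 were 0.47 and −0.64, and none passed without replicate 3. With FPKM as deposited the value of Decr1 was 0.24. The call of Decr1 was lost without any 1 of 43 of the 72 libraries, that of Acaa1b without any 1 of 3 (low salt night fed ZT0 replicate 3 and ZT4 replicate 1, high salt day fed ZT16 replicate 3), and that of Etfb without any 1 of 5 (these 3, low salt night fed ZT12 replicate 3 and high salt day fed ZT4 replicate 1). The cause was not tested.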

How the results depend on the processing

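Single members were followed for 204 called results, which are not all the results called. They are up to 8 per comparison with the largest value, and Cpt1a, Pdk4, Angptl4, Fabp1 and Bdh1 where called. Smaller called results are left out of these figures. Of the 204, 202 kept their call with a pseudocount of 0.1, 190 with no filter, 190 with quantile normalization and 199 with a replicate block. With the length score as covariate 160 did, and 125 with FPKM as deposited. In the fit without the 14 low-scale libraries, which also used cosine and sine terms for time, 129 did. Without replicate 1, 2 or 3 the figures were 124, 112 and 117. The replicate numbers did not pair libraries (3 to 8 of 18 pairs correlated above 0.1 in a comparison), and with the block the counts were 12 and 15 for food access on low and high salt, 23 and 21 for the levels of the Bmal1 and MR knock outs, and 10 for high against low salt in night fed mice. Members called, where a count moved by over 1.5 times, were as follows, and the cause was not tested. The share of all genes called in the same setting is not given beside these counts. With FPKM as deposited, rhythmic members were 1 in the wild type, 6 in low salt night fed mice, 7 in high salt day fed mice and 2 in the MR knock out; mid-light against mid-dark gave 1 in the wild type, 2 in low salt night fed and 20 in high salt night fed mice; food access on low salt gave 7 and light-dark 1; levels gave 13 for the MR knock out, 1 for day against night feeding on low salt, 28 on high salt, 26 for high against low salt by night and 1 by day; rhythm differences were 30 (Bmal1 knock out), 30 (salt, night fed) and 14 (salt, day fed); diet differences were 21 for food access and 24 for the salt effect. Without the low-scale libraries, rhythmic members were 3 in the Bmal1 knock out and 9 in high salt night fed mice; mid-light against mid-dark gave 10, 3 and 5 in the Bmal1 knock out, low salt night fed and high salt night fed mice; food access on high salt gave 9; levels gave 1, 1 and 3 for day against night feeding on low and on high salt and for salt by night; rhythm differences were 0 for the Bmal1 knock out and 0 for salt by night, and the salt effect differed for 0. With the length score, rhythmic members were 18 and mid-light against mid-dark 14 in the wild type, light-dark on low salt 9, levels 14 (Bmal1 knock out), 11 (MR knock out) and 5 (salt by day), rhythm differences 1 (MR knock out), 12 (salt by night) and 18 (salt by day), and food access differed between diets for 1. With quantile normalization mid-light against mid-dark gave 5 in low salt night fed mice and light-dark 1 on low salt. A pseudocount of 0.1 and no filter each gave 1 for day against night feeding on low salt. With ZT4, ZT8 and ZT12 against the rest, high salt day fed mice had 1, and light-dark gave 1 and 11 on low and high salt. With ZT0, ZT4 and ZT8 against the rest, mid-light against mid-dark gave 3 in the MR knock out and, on high salt, 4 by night and 13 by day feeding, food access 5 and 8, and light-dark 6 and 4 on low and high salt. Leaving out 1 library, or all libraries of 1 replicate number, rhythmic members ranged over 4 to 14 (wild type), 7 to 22 (Bmal1 knock out), 0 to 11 (MR knock out), 9 to 18, 4 to 15, 13 to 27 and 4 to 17 (low salt night and day fed, high salt night and day fed); mid-light against mid-dark over 3 to 9, 8 to 24, 0 to 12, 3 to 9, 2 to 10, 6 to 14 and 3 to 5 in the same order; food access over 5 to 16 and 8 to 18, light-dark over 0 to 1 and 0 to 0; levels over 20 to 24 and 13 to 22 (Bmal1 and MR knock outs), 0 to 3 and 1 to 14 (feeding, low and high salt), 5 to 15 and 0 to 4 (salt by night and day); rhythm differences over 0 to 18, 0 to 1, 0 to 10 and 3 to 12; diet differences over 0 to 1 (food access) and 0 to 11 (salt effect). Omissions of a replicate number alone gave 4 to 6, 7 to 20, 0 to 4, 9 to 12, 4 to 7, 13 to 25 and 4 to 12 rhythmic members in the same order of groups, and 5 to 10 and 8 to 11 following food access. Values that changed sign are listed for the 204 results above, and beyond them only where stated. With FPKM as deposited they were, for mid-light minus mid-dark, Etfb 0.084 in the Bmal1 knock out and Decr1 −0.049 and Eci2 −0.075 in the MR knock out. In high salt night fed mice they were Acaa1a −0.15, Acot2 −0.036, Eci2 −0.24 and Hadha −0.26. For food access on high salt the value was Acaa1a −0.10. Beyond the 204 results, Acadl (−0.15), Decr1 (−0.15), Eci2 (−0.15) and Hadha (−0.17) also changed sign there. For day against night feeding on high salt they were Acaa1b 0.080, Decr1 0.24 and Etfb 0.11. For salt by night they were Acaa1a −0.21, Acot1 −0.19 and Decr1 −0.29. With ZT0, ZT4 and ZT8 against the rest they were Eci2 −0.083 (low salt night fed), Acot2 0.0023 (low salt day fed), Acaa1a −0.060 and Eci2 −0.064 (high salt night fed), and for food access on low salt Acot2 −0.063 and Eci2 −0.034. With the length score they were Acaa1a −0.051 (food access, low salt), Fabp1 −0.013 (Bmal1 knock out), and Etfb −0.11 and Pex11a 0.037 (MR knock out). Absolute depth is unknown, so values near 0, such as those of Cd36, carry no interval.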
